A study of Mus musculus with 6 samples.

Results

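The nuclear genes of respiratory complexes II, III, IV and V, with cytochrome c, were examined in wild-type (WT) mouse embryonic stem (ES) cells and in cells labelled knockout (KO) for Alkbh1, which encodes a dioxygenase of the AlkB family. Members were taken by gene symbol, from the Sdh, Uqcr, Cox and Atp5 families with Cyc1, Cycs, Atpif1, Surf1, Sco1 and Sco2. The pattern matched 64 of the 23951 genes in the authors' deposited table, and 62 of these were among the 14095 genes that the authors tested. The untested members, Cox6a2 and Cox8b, encode forms of complex IV subunits found in heart and skeletal muscle. Cox6a2 was listed at 0.170 (WT) and 0.0745 FPKM (KO), and Cox8b at 0 in WT and 0.0561 FPKM in KO.

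All cells were of the TT2 ES cell line, of mixed C57BL6 and CBA background, at passage 5, grown without feeder cells. The WT group had 2 libraries and the KO group 4, from 2 KO clones with 2 libraries each, so a difference between genotypes cannot be told apart from one between these clones and the WT line. The labels do not state how the allele was made. Each group has 1 level per gene in the authors' deposited table, in FPKM (fragments scaled to transcript length and to mapped fragments), so values per library and their SD are not given here. Depth is unknown. Whether the replicates were separate cultures is not stated, and the q values then measure only the spread the authors' program estimated between libraries. A gene was called at q under 0.05, with q the authors' p-value adjusted over all tested genes.

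Complex II (succinate dehydrogenase) and complex III pass electrons by way of ubiquinone and cytochrome c to complex IV (cytochrome c oxidase), which reduces oxygen. Complexes III and IV pump protons, and complex V (ATP synthase) uses the returning protons to make ATP. Complexes III, IV and V combine subunits of the nuclear and of the mitochondrial genome, while complex II is nuclear alone. Some subunits of complex IV come in a common form and in forms restricted to tissues such as muscle, lung or testis. Pluripotent cells are known for a strong use of glycolysis beside respiration.

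The targeted gene and the scale of the table bear on every value below. Alkbh1 had a WT level of 33.9 FPKM and a KO level of 18.1 FPKM and was not called (q = 0.0943 in the authors' deposited table), so its level does not check the genotype labels. Of 7 tested pluripotency markers, 5 were called lower (Dppa5a, Pou5f1, Sox2, Tdgf1 and Zfp42) and none higher in the authors' deposited table, with Pou5f1 at 1222 (WT) and 716 FPKM (KO). Over all tested genes 28.4% were called lower. In the highest of 10 classes by mean FPKM, where 6 of the 7 markers lay, 77.2% were. Nanog was listed at 481 (WT) and 426 FPKM (KO) without a valid test. Esrrb, at 75.04 (WT) and 84.3 FPKM (KO), and Klf4, at 39.5 and 39.1 FPKM, were not called. Among the 8 markers of fibroblasts, the usual feeder cells, Col1a1, Pdgfrb and Thy1 were called higher and Vim lower in the authors' deposited table. In WT and KO, Col1a1 was at 0.322 and 0.664 FPKM and Pdgfrb at 0.318 and 0.895 FPKM. Thy1 was at 6.43 and 9.39 FPKM and Vim at 61.4 and 22.0 FPKM. S100a4, at 0.345 and 1.10 FPKM, was tested and not called. Col1a2, Col3a1 and Postn were not tested, at levels from 0 to 0.0416 FPKM. Summed over all tested genes, FPKM in KO came to 63.6% of WT. If totals were set equal, every log2 fold change below would stand 0.65 higher.

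Respiratory genes were lower in KO as measured, in every complex, and 2 restricted complex IV subunits were higher. Of the 62 tested members, 48 were called lower, 2 higher and 12 not called in the authors' deposited table. There 50.8% of all tested genes were called, 28.4% lower and 22.4% higher. The median log2 fold change of the members was -0.59, against -0.06 over all tested genes. The direction of that median depends on the scaling, since with equal totals it stood at 0.058 and the 50 called members split into 29 below and 21 above 0. Of the 7163 called genes of the whole table, 2375 then lay below and 4788 above 0. In bulk RNA, fewer cells with a transcript and less of it per cell cannot be told apart. The higher genes were Cox6b2 and Cox7a1, and both stayed above 0 with equal totals. Only 5 of the members called lower fell by at least 2-fold, namely Sdhd, Surf1, Cox11, Atp5l and Atp5e, and of those called higher Cox6b2 alone rose as much. Over all tested genes, 5.36% were called lower and 9.04% higher with such a fold. The smallest q in the authors' deposited table, 0.000206, was shared by 28 members.

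Abundant genes were lower as a whole, and the respiratory genes are abundant. Of the 62 members, 43 lay in the highest of 10 level classes (deciles of the mean of WT and KO FPKM over tested genes), which starts at 76.1 FPKM. In that class 77.2% of all genes were called lower, and the median log2 fold change was -0.72. Its 43 respiratory members had a median of -0.69, with 40 called lower and 20 below the class median. The 19 members of lower levels, mainly assembly factors and restricted subunits, included 14 that lay below the median of their own class. Transcripts of the members were short, with a median of 1241 bases against 3160 for tested genes. The shortest length decile of all tested genes (up to 1208 bases) had a median log2 fold change of -0.46, and the 28 members in it one of -0.67. The part of level and transcript length in the differences was not tested.

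**Figure D1:**
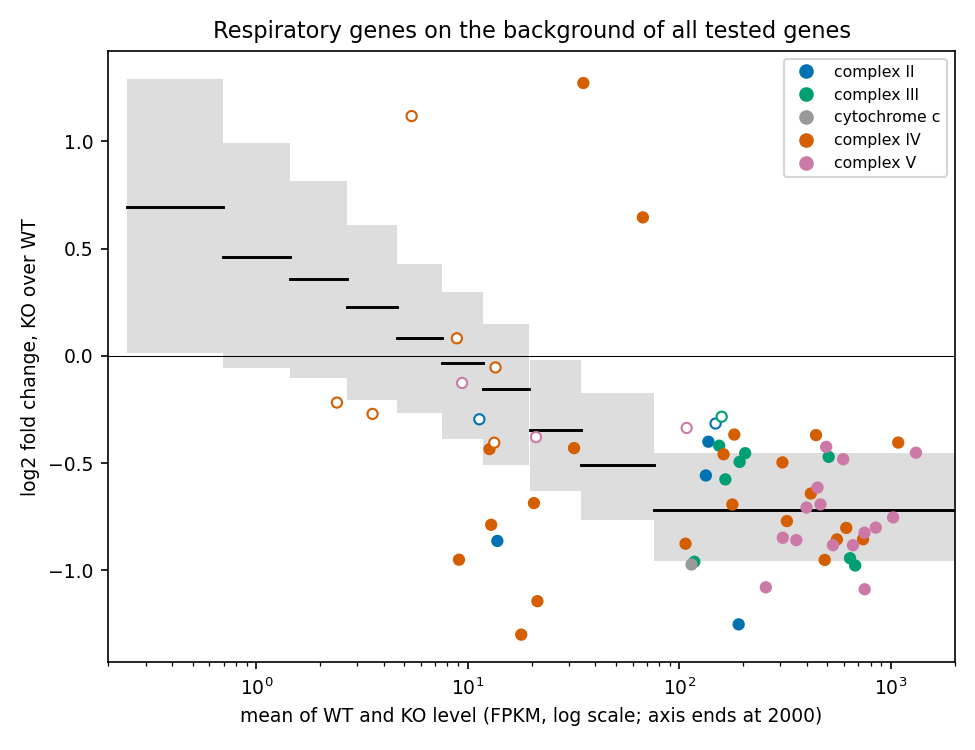
Log2 fold change (KO over WT) of each tested member against its mean level in FPKM on a log axis, coloured by complex, filled where called at q under 0.05. Black lines and grey bands are the median and middle 50% of all tested genes in 10 classes by level; members in the highest class scatter around its median of -0.72, and 3 complex IV genes lie far above the band of their class.

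In order of level, ATP synthase led. Complex V made up 50.2% of the summed WT FPKM of the members and 49.0% of the KO sum, complex IV 30.7% and 32.1%, complex III 15.1% and 14.9%, and complex II 3.36% and 3.42%. The proportions between complexes thus moved by less than 2 percentage points. Atp5b, the catalytic beta subunit of ATP synthase, was highest in both groups, at 1514 (WT) and 1107 FPKM (KO). The KO sum was 63.1% of WT for complex II, 61.2% for complex III, 64.8% for complex IV and 60.5% for complex V, each close to the 63.6% of the whole table. Across the 62 members, WT and KO levels had a Spearman's rho of 0.99, a description over genes that share the same libraries.

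**Figure D2:**
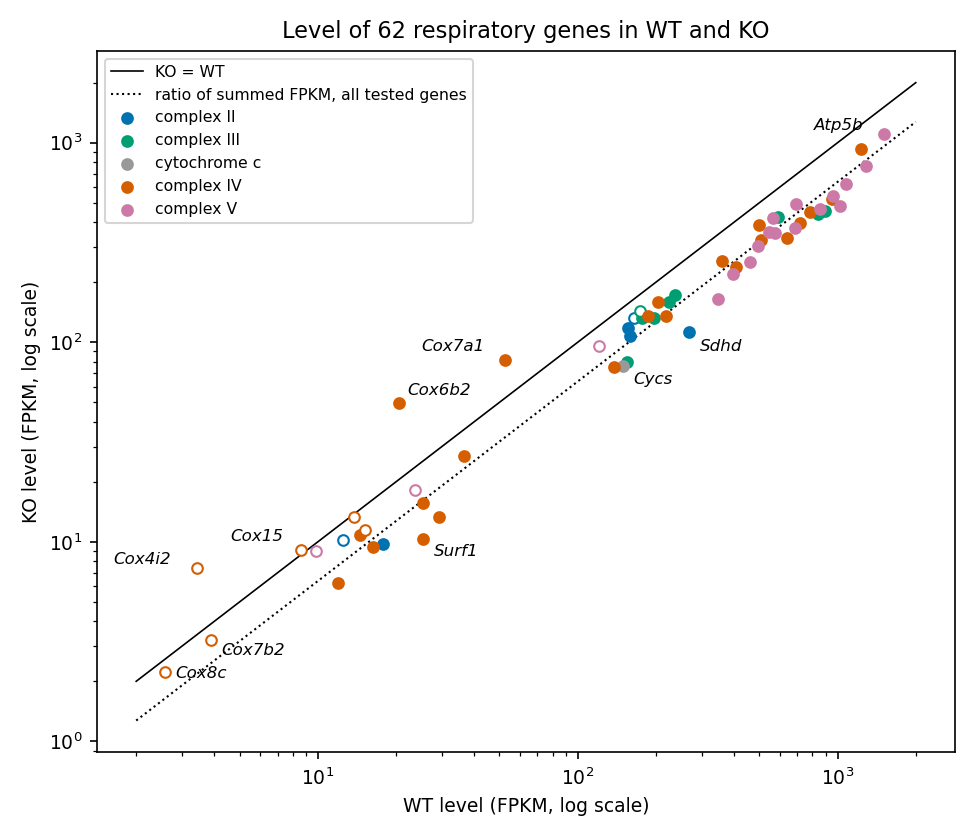
KO against WT level of the 62 tested members, in FPKM on log axes, filled where called at q under 0.05. Most points follow the dotted line of the whole table's ratio, while Cox6b2, Cox7a1 and Cox4i2 lie above the solid line of equal levels and Surf1 and Sdhd below the dotted line.

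In complex II, a membrane subunit fell furthest. Of the 6 members, 4 were called lower and none higher in the authors' deposited table, and the median log2 fold change was -0.48. The 4 subunit genes lay in the highest level class, where 77.2% of all genes were called lower. With equal totals Sdha and Sdhb would lie above 0, as would Sdhc and Sdhaf1, which were not called. Sdhd, which encodes the smaller of the membrane anchor subunits, fell from 268 FPKM in WT to 113 FPKM in KO, 42.0% of WT (log2 fold change -1.25, q = 0.000206 in the authors' deposited table). It was the most abundant of the 4 subunit transcripts in WT and came after Sdha and Sdhc in KO. Its partner in the membrane, Sdhc, was at 164 (WT) and 132 FPKM (KO) and was not called (q = 0.0724 in the authors' deposited table). The catalytic subunits fell less than Sdhd, the flavoprotein Sdha from 156 to 118 FPKM and the iron-sulfur protein Sdhb from 159 to 108 FPKM. As a share of the 4 transcripts, which no single scaling factor can alter, Sdhd went from 35.9% in WT to 23.9% in KO. The assembly factor Sdhaf2, needed to attach flavin to Sdha, fell from 17.8 to 9.78 FPKM. Sdhaf1, which helps insert iron-sulfur clusters into Sdhb, was at 12.5 (WT) and 10.2 FPKM (KO) and was not called (q = 0.186 in the authors' deposited table).

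In complex III and cytochrome c, 9 of 10 genes were called lower and none higher in the authors' deposited table. All 10 lay in the highest level class, where 77.2% of all genes were called lower. Of the 9 complex III genes, 3 lay below the median of that class, as did Cycs. The complex III median was -0.49, and with equal totals Cyc1, Uqcrc1, Uqcrc2, Uqcrq and Uqcr10 would lie above 0, as would Uqcr11, which was not called. Uqcrh, the hinge protein that docks cytochrome c1, fell from 898 to 456 FPKM (-0.98 on the log2 scale), and Uqcrfs1, the Rieske iron-sulfur protein, from 155 to 79.8 FPKM (-0.96 on the log2 scale, per the authors' deposited table). Uqcrb, a small subunit near the quinone site, fell from 842 to 438 FPKM. The other catalytic subunit in the list, cytochrome c1 (Cyc1), fell less than Uqcrfs1, from 236 to 173 FPKM (-0.45 on the log2 scale, per the authors' deposited table). The core proteins fell from 176 to 132 FPKM (Uqcrc1) and from 197 to 132 FPKM (Uqcrc2). The small subunits Uqcrq and Uqcr10 fell to 71.0% and 72.2% of WT. Uqcr11 had 174 FPKM in WT, 143 FPKM in KO, and was not called (q = 0.166 in the authors' deposited table). Cycs, the mobile electron carrier that also triggers apoptosis from the cytosol, fell from 150 to 76.3 FPKM (-0.97 on the log2 scale, per the authors' deposited table).

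**Figure D3:**
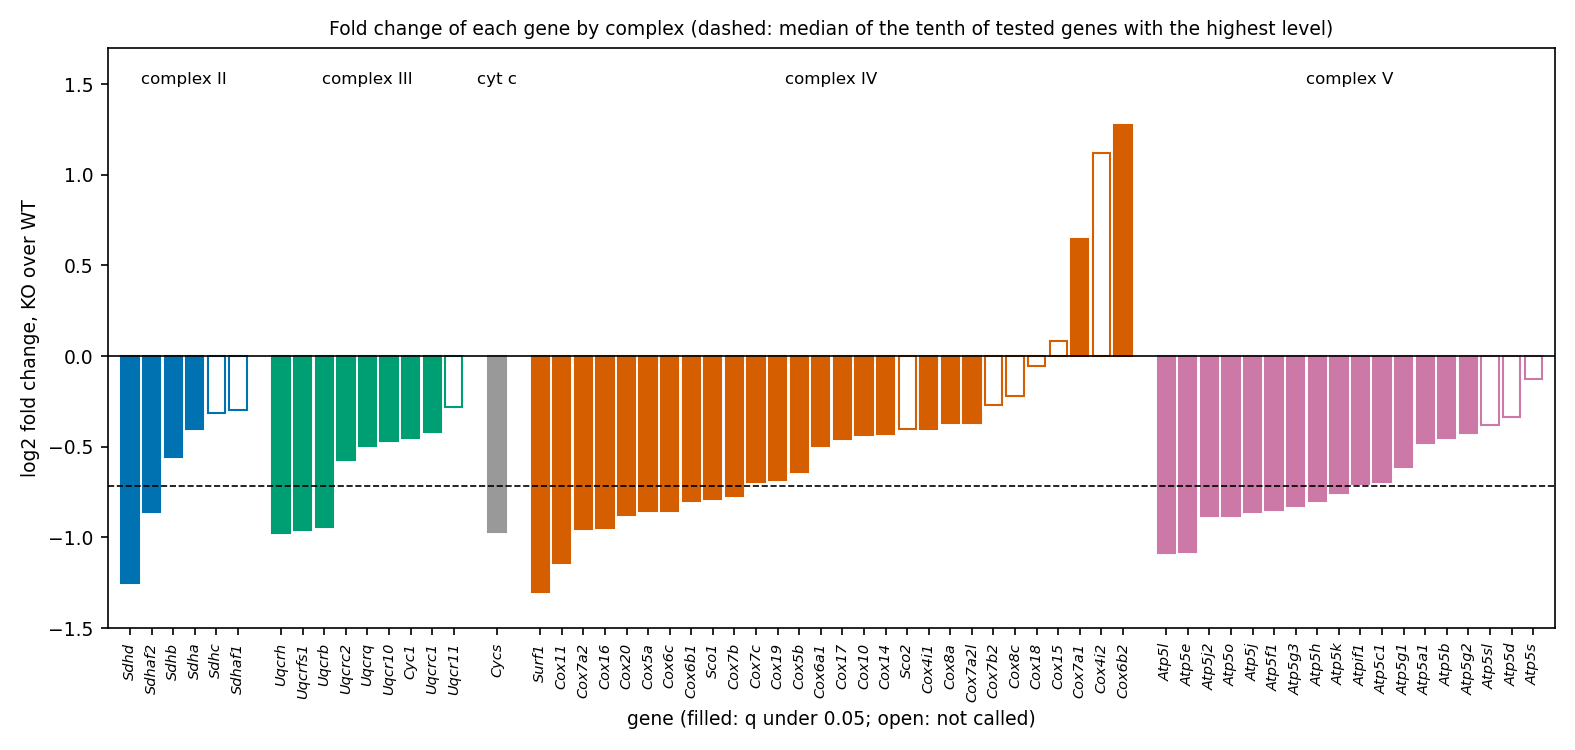
Log2 fold change (KO over WT) of each tested member as a bar, ordered within its complex, filled where called at q under 0.05 and open otherwise. The dashed line is the median of the highest of 10 level classes of all tested genes, -0.72; Sdhd, Surf1 and Cox6b2 are the extremes of the plot.

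In complex IV, all 10 common subunits were called lower as measured, whereas none of the 5 tested restricted forms was. The groups differed in level. All 10 common forms lay in the highest level class, where 77.2% of all genes were called lower. In the class of Cox6b2 and Cox7a1 this share was 59.8%. In the classes of Cox4i2, Cox7b2 and Cox8c it was 14%, 13% and 8.69%. The 10 common subunits (Cox4i1, Cox5a, Cox5b, Cox6a1, Cox6b1, Cox6c, Cox7a2, Cox7b, Cox7c and Cox8a) had log2 fold changes in the authors' deposited table from -0.95 for Cox7a2 to -0.37 for Cox8a, with a median of -0.73. With equal totals Cox4i1, Cox5b, Cox6a1 and Cox8a would lie above 0. Cox4i1, the regulatory subunit that binds ATP, stayed the most abundant of the complex at 1232 (WT) and 931 FPKM (KO). Cox7a2l, a relative of Cox7a2 that joins complexes III and IV into supercomplexes, fell to 77.6% of WT (-0.37 on the log2 scale, per the authors' deposited table). Of the restricted forms, 2 were called higher and 3 not called. This division into common and restricted forms rests on their known tissue distribution and was made with the values in view.

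Cox6b2, the testis form of the subunit that joins the monomers of the oxidase dimer, rose from 20.6 FPKM in WT to 49.7 FPKM in KO, 2.41-fold (log2 fold change 1.27, q = 0.000206 in the authors' deposited table). Its common counterpart Cox6b1 fell from 780 to 448 FPKM (-0.80 on the log2 scale, per the authors' deposited table). Within the pair, Cox6b2 went from 2.57% of the summed FPKM in WT to 9.99% in KO. Cox7a1, the heart and skeletal muscle form of its subunit, rose from 52.4 to 81.9 FPKM, 1.56-fold (log2 fold change 0.65, q = 0.00218 in the authors' deposited table). Its counterpart Cox7a2 fell from 640 to 331 FPKM (-0.95 on the log2 scale, per the authors' deposited table), so Cox7a1 went from 7.56% to 19.8% of the pair. No single scaling factor between groups alters these shares, and with 1 pooled value per group their change could not be tested. Over all tested genes the median log2 fold change was -0.51 in the level class of Cox6b2 and Cox7a1. It was -0.72 in that of Cox6b1 and Cox7a2. The part of level in the shares was not tested. The common form remained the larger part of each pair.

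The other restricted forms were near the lower end of the levels. Cox4i2, the form known from lung and from oxygen sensing, had 3.42 FPKM in WT, 7.42 FPKM in KO, and was not called (log2 fold change 1.12, q = 0.141 in the authors' deposited table). It made up 0.277% of the Cox4 pair in WT and 0.791% in KO, and its region in the table is joined with Bcl2l1. In the level class of Cox4i2 the median log2 fold change of all tested genes was 0.084, against -0.72 in that of Cox4i1. Cox7b2 was at 3.87 and 3.21 FPKM and Cox8c, a testis form, at 2.58 and 2.22 FPKM in WT and KO, neither called (q = 0.450 and 0.639 in the authors' deposited table). Markers of heart and skeletal muscle were low beside Cox7a1. Of the 7 listed, Myh6 was called higher, at 0.800 (WT) and 1.41 FPKM (KO), and 3 others were tested and not called in the authors' deposited table. The regions of Myh6 and of Mb, a tested marker not called, are joined in the table with other genes. The summed level of the 4 tested markers was 4.46 (WT) and 5.19 FPKM (KO). Actc1, not tested, was at 0.172 and 0.181 FPKM.

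**Figure D4:**
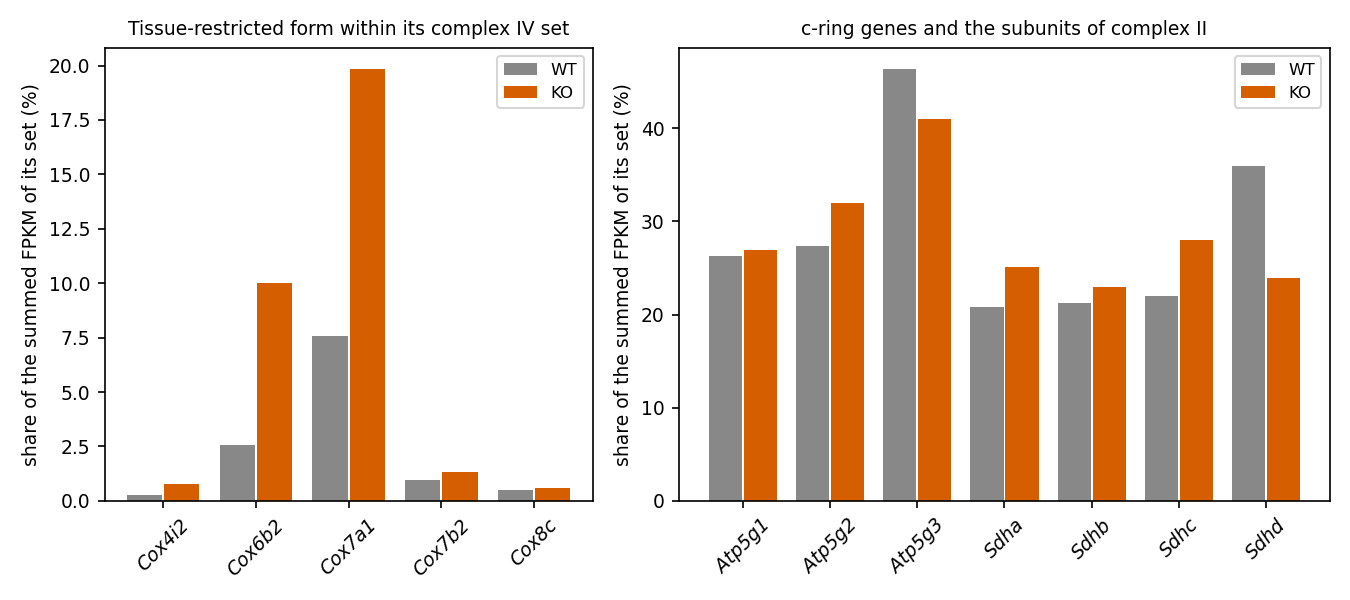
Bars give the share (%) that a gene takes of the summed FPKM of its set in WT (grey) and KO (orange), 1 pooled value each, without error bars. On the left, restricted forms are set against their common form (Cox8c also with Cox8b), and Cox6b2 and Cox7a1 take 9.99% and 19.8% in KO; on the right, Sdhd falls from 35.9% to 23.9% of the complex II subunits while the 3 c-ring genes keep their order, with Atp5g2 at 32.0% in KO.

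A gene that rose and one that fell lay near each other. Cox7a1 (chromosome 7, 30969190 to 30971049, mm9), Sdhaf1 (chromosome 7, 31106428 to 31107394, mm9) and Cox6b1 (chromosome 7, 31401993 to 31411170, mm9) lie within 441981 bases, and of these Cox7a1 rose, Cox6b1 fell and Sdhaf1 was not called in the authors' deposited table. Cox6b2 lies on the same chromosome at 4703394 to 4704696 (mm9).

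The bases upstream of the starts of these pairs are shown because each pair holds a gene that rose and one that fell. The sequences are those of RefSeq on GRCm38.p6, another build than that of the table, and cover the 250 bases before the start, 5′ to 3′ on the gene's strand. Capitals mark matches to letters known for factors of respiratory gene promoters: CCGGAAG (ETS factors such as GABP), GCGCA followed by any base and GCGC (NRF1), and AAGATGG (YY1), searched on both strands.
Cox7a1, chr7:30183921-30184170, plus strand: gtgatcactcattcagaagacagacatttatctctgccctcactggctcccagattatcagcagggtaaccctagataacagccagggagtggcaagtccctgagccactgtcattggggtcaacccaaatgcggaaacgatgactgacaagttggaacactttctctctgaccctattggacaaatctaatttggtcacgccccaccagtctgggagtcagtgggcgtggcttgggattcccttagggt
Cox7a2, chr9:79759854-79760103, minus strand: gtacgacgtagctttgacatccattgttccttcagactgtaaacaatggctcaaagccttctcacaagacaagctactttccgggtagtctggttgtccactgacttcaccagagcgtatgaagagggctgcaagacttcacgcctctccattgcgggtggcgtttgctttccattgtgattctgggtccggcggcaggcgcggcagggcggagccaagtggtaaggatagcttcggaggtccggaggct
Cox6b2, chr7:4753095-4753344, minus strand: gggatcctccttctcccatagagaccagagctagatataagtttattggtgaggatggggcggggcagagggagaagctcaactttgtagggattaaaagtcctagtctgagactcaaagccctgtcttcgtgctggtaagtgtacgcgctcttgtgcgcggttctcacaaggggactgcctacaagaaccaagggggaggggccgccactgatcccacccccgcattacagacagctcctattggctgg
Cox6b1, chr7:30626115-30626364, minus strand: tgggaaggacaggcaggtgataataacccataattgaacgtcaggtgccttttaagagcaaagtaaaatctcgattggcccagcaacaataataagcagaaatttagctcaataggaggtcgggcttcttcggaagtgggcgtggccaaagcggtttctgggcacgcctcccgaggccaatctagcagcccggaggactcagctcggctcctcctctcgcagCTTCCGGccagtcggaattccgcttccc
In these windows Cox6b1 held a CCGGAAG match, on the strand opposite to the gene, with its first base 28 bases before the start. Cox7a1, Cox7a2 and Cox6b2 held no match to any of the 3. The windows of Cox7a1 and Cox6b2, with the 50 bases after the start included, had 7 and 10 CpG dinucleotides, against 20 in Cox7a2 and 17 in Cox6b1 and a median of 20 over the 10396 tested genes matched by symbol. Cox7b, which fell, had 5, the fewest among the 50 members with a promoter entry.

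Over all members, promoters were found for 50 of the 62, 3 of them through a newer symbol. In windows of 300 bases (250 before and 50 after the start), CCGGAAG was found in 21 of the 50 (42%), in 19.1% of tested genes and in 8.86% of all 32851 windows. The NRF1 letters were found in 11 of the 50 (22%), in 11% of tested genes and in 4.6% of all windows, and their palindromic form, with T as the free base, in 4 of the 50, in 2.26% of tested genes and in 0.971% of all windows. AAGATGG was found in 7 of the 50 (14%), in 8.2% of tested genes and in 6.34% of all windows, and the longer form that goes on with CGG in 3 of the 50, in 2.24% of tested genes and in 0.852% of all windows. The median log2 fold change was -0.80 for the 21 members with CCGGAAG and -0.64 for the 29 without, a difference that was not tested. For the NRF1 letters the medians were -0.71 with and -0.69 without, and for their palindromic form -0.46 and -0.70. For AAGATGG they were -0.85 with and -0.69 without, and for its longer form -0.43 and -0.69. The palindromic and the longer form rest on 4 and 3 members. Sdhd, Atp5k, Atp5h and Cox6a1 each held matches to both the ETS and the NRF1 letters. The bases of Sdhd and of Atp5k, the second most abundant member in WT, are shown. The match of Atp5k to the ETS letters lay after the start and so is not in the bases shown.
Sdhd, chr9:50603850-50604099, minus strand: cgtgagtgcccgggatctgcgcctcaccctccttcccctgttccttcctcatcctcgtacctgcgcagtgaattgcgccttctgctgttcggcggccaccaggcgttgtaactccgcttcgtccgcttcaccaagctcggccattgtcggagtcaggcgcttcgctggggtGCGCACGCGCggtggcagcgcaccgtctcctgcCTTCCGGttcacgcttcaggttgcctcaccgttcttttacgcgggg
Atp5k, chr5:108434400-108434649, minus strand: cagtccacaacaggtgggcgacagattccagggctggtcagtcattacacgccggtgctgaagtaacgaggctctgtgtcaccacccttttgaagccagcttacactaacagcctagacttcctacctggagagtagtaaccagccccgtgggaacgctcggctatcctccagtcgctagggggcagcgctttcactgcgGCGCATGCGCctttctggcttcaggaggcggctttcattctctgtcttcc

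Assembly factors of complex IV had a lower median level than its subunits. Of 13, 10 were called lower and none higher in the authors' deposited table, with a median log2 fold change of -0.46 and a median WT level of 25.3 FPKM, against 406 FPKM for the tested complex IV subunits. Of all tested genes 28.4% were called lower, and 9 of the 13 factors lay below the median of their own level class. With equal totals Cox10, Cox14, Cox17 and Cox7a2l would lie above 0, as would Cox15, Cox18 and Sco2, which were not called. Surf1, needed early in assembly and mutated in Leigh syndrome, was at 25.4 (WT) and 10.3 FPKM (KO) (-1.30, q = 0.0300 in the authors' deposited table). Its region is joined with that of Surf2 and Surf4, of which Surf2 was also called lower (53.1 and 18.0 FPKM) in the authors' deposited table, so the split of reads between these genes is uncertain.

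Of the copper factors, Cox11, which delivers copper to the Cox1 subunit, fell from 29.3 to 13.3 FPKM (-1.14 on the log2 scale, per the authors' deposited table), in a region joined with Tom1l1. The copper chaperone Cox17 fell from 187 to 136 FPKM and Cox19 from 25.3 to 15.7 FPKM. Sco1 and Sco2 both act in copper delivery to the Cox2 subunit. Sco1 fell from 16.3 to 9.46 FPKM (-0.79 on the log2 scale, per the authors' deposited table), while Sco2 was at 15.2 (WT) and 11.5 FPKM (KO) and was not called (q = 0.559 in the authors' deposited table). The region of Sco2 is joined with that of Ncaph2 and Tymp, so the split of reads between these genes is uncertain. Of the heme A enzymes, Cox10 fell from 14.5 to 10.8 FPKM and Cox15 stood at 8.62 and 9.12 FPKM, not called (q = 0.720 in the authors' deposited table), in a region joined with Entpd7.

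Among the remaining factors, Cox16 and Cox20, which act in the maturation of Cox2, fell to 51.8% and 54.5% of WT. Cox14, which acts with newly made Cox1, fell from 36.5 to 27.1 FPKM. Cox18, a membrane insertase for Cox2, stood at 13.8 and 13.3 FPKM and was not called (q = 0.825 in the authors' deposited table).

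In complex V, the membrane and peripheral stalk subunits had the lowest median log2 fold changes, -0.88 and -0.85, although single genes of other groups (Atp5e and Atp5g3) fell as far as some of them. Of 18 members, 15 were called lower and none higher in the authors' deposited table, with a median of -0.73, which stood at -0.077 with equal totals. Of the 18, 16 lay in the highest level class, where 77.2% of all genes were called lower. In the catalytic head (F1), the alpha subunit Atp5a1 fell from 692 to 496 FPKM and the beta subunit Atp5b from 1514 to 1107 FPKM (-0.48 and -0.45 on the log2 scale, per the authors' deposited table), and both would lie above 0 with equal totals. Of its central stalk, gamma (Atp5c1) fell from 573 to 355 FPKM and epsilon (Atp5e) from 348 to 165 FPKM (-0.69 and -1.08 on the log2 scale, per the authors' deposited table). Delta (Atp5d) was at 121 (WT) and 95.6 FPKM (KO) and was not called (q = 0.0694 in the authors' deposited table). Each enzyme holds several copies of alpha and beta beside a single gamma, but transcript levels did not follow these copy numbers. Atp5b was at 2.64 times the level of Atp5c1 in WT and 3.12 times in KO. Atp5a1, at 692 (WT) and 496 FPKM (KO), was nearer to Atp5c1, at 573 and 355 FPKM.

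The peripheral stalk, which holds the head still, fell together. Its 4 genes Atp5f1, Atp5h, Atp5j and Atp5o were all called lower in the authors' deposited table, between -0.88 and -0.80, at 54.2% to 57.4% of WT. The regions of Atp5f1 and Atp5j are joined in the table with Wdr77, which was called lower, and with Gabpa, which was not. The small membrane subunits Atp5j2, Atp5k and Atp5l, which take part in dimer formation, fell to 54.2%, 59.3% and 47.1% of WT. Atp5l fell from 1021 to 480 FPKM (-1.09 on the log2 scale, per the authors' deposited table). All 4 stalk and all 3 membrane genes lay below the median of the highest level class, whereas of the 5 F1 genes only Atp5e did.

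The rotor ring of subunit c is encoded by 3 genes whose mature proteins are the same. All 3 were called lower in the authors' deposited table, at -0.61 for Atp5g1, -0.42 for Atp5g2 and -0.82 for Atp5g3, while with equal totals Atp5g1 and Atp5g2 would lie above 0. Their sum went from 2066 to 1317 FPKM, 63.8% of WT. Atp5g3 took 46.3% of the sum in WT and 41.1% in KO, Atp5g2 27.4% and 32.0%, and Atp5g1 26.3% and 26.9%. Atpif1, the peptide that inhibits reverse action of the enzyme, fell from 494 to 303 FPKM (-0.71 on the log2 scale, per the authors' deposited table). Atp5s, described as a coupling factor of the enzyme, and its relative Atp5sl were at 9.80 and 8.98 FPKM and at 23.7 and 18.2 FPKM in WT and KO, neither called (q = 0.587 and 0.0587 in the authors' deposited table). Both are counted in complex V by symbol alone, and RefSeq now names them Dmac2l and Dmac2.

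Further genes of these complexes lie outside the naming pattern. Of 27 tested further assembly factors and small subunits of complexes III to V, 19 were called lower and none higher in the authors' deposited table, with a median of -0.52. These 19 are 70.4%, against 28.4% of all tested genes, and 20 of the 27 lay below the median of their own level class. Among the 8 not called, Fdxr (7.77 and 8.93 FPKM) and Lyrm7 (3.48 and 3.73 FPKM) were above WT in KO. The 3 largest falls were those of Fdx1l, a mitochondrial ferredoxin, from 55.1 to 23.1 FPKM, of Usmg5, a small ATP synthase subunit, from 1251 to 549 FPKM, and of Fastkd2, a mitochondrial RNA-binding protein, from 40.05 to 18.2 FPKM. The regions of Fdx1l and Usmg5 are joined in the table with other genes. Of 13 tested regulators of respiratory gene transcription, 5 were called lower (Mterfd1, Tfam, Yy1, Tfb2m and Gabpb1) and Ppargc1b higher in the authors' deposited table, with a median of -0.26. The share called lower was 38.5%, against 28.4% of all tested genes. In the level classes from 19.6 to 34.4 and from 34.4 to 76.1 FPKM, 44.9% and 59.8% of all genes were called lower. Tfam, which packages and transcribes mitochondrial DNA, fell from 59.8 to 32.7 FPKM and Yy1 from 57.7 to 34.4 FPKM. Nrf1, at 23.3 and 20.7 FPKM, and Gabpa, at 40.4 and 31.8 FPKM, were not called (q = 0.396 and 0.196 in the authors' deposited table). Ppargc1b, a coactivator of mitochondrial genes, rose from 0.348 to 0.587 FPKM, and its relative Ppargc1a, not tested, was at 0.0127 and 0.00327 FPKM.

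Neighbouring mitochondrial gene groups are given for scale. Complex I genes (Nduf symbols) had 41 of 45 tested members called lower and none higher in the authors' deposited table, with a median of -0.67, and KO sums at 63.4% of WT. Mitochondrial ribosomal protein genes had 74 of 77 called lower and none higher, with a median of -0.85 in the authors' deposited table, and KO sums at 53.0% of WT. Of all tested genes 28.4% were called lower, and 77.2% of those in the highest level class. That class held 32 of the complex I and 27 of the ribosomal genes. Of the ribosomal genes 67 of 77 lay below the median of their own level class, against 34 of the 62 respiratory members. These differences between groups were not tested.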

How the data were processed

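Libraries were made from total RNA with a strand-specific messenger RNA kit, per the labels' protocols, and aligned with TopHat2 to mouse build mm9, per the submitters' processing notes; their versions, and the gene annotation, are not given in the sources used here. Cuffdiff-style columns make up the single deposited table, per the file headers. It holds FPKM, 1 value for WT and 1 for KO computed by the authors, with the authors' log2 fold change, test statistic (a score), p-value and q-value. No library has a value of its own, so no test was run anew, and the authors' calls at q under 0.05 were used.

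Members, roles and gene lists were chosen with earlier results of these data known. The genes named are all 62 tested members, and from each other list up to 3 called genes with the largest fold in each direction. The other regulators, assembly factors and markers named were chosen after their values were seen, and Alkbh1 is named as the targeted gene. Shares, sums, medians and level deciles were computed with Python 3.11.15, NumPy 2.4.6, pandas 2.3.3 and SciPy 1.17.1. Only the difference of a list median from its decile median and the p-value adjustment were tested on simulated data. Deciles cover the 14039 tested genes with a finite fold change. Starts in the table count from 0 and are printed from 1. Transcript lengths are those of the longest GENCODE M21 transcript. Promoters are from RefSeq (GRCm38.p6). RefSeq names pseudogenes of 7 members (Atp5c1, Atp5k, Atp5l, Cox5b, Cox7c, Cycs and Uqcrh), whose reads are uncertain. Another 9 tested members share their region with another gene in the table (Atp5b, Atp5f1, Atp5j, Cox11, Cox15, Cox4i2, Sco2, Surf1 and Uqcrc2). Protein sequences of the paralogs are not analysed here.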

Additional observations from a re-analysis of the deposited data

How the results depend on the processing

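The deposited values carry no spread between libraries, so a value was counted as moved when it changed by over 1.5-fold. No paired analysis was possible because the deposited table holds 1 pooled value per condition, and for the same reason no replicate could be left out. Requiring a 2-fold difference left 5 members lower and 1 higher, with 1 lower in complex II, 0 in complex III, 2 in complex IV (and 1 higher there) and 2 in complex V. At q under 0.01, 37 members were lower, 13 of them in complex IV. With equal totals the median log2 fold change was 0.058 for all members, 0.17 for complex II, 0.16 for complex III, 0.18 for complex IV and -0.077 for complex V. The KO sums would then be 97.4% of WT for all members, 99.2%, 96.3% and 95.2% for complexes II, III and V, and 101.9% for complex IV. Recentring on the highest level decile, chosen after the data were seen, gave medians of 0.12 for all members, 0.24, 0.22 and 0.24 for complexes II, III and IV, and -0.011 for complex V. Of the 50 called members, 19 changed sign with equal totals, all from lower to above 0. They then stood at 0.17 (Atp5a1), 0.20 (Atp5b), 0.039 (Atp5g1), 0.23 (Atp5g2), 0.22 (Cox10), 0.22 (Cox14), 0.19 (Cox17), 0.25 (Cox4i1), 0.011 (Cox5b), 0.16 (Cox6a1), 0.29 (Cox7a2l), 0.28 (Cox8a), 0.20 (Cyc1), 0.25 (Sdha), 0.096 (Sdhb), 0.18 (Uqcr10), 0.23 (Uqcrc1), 0.077 (Uqcrc2) and 0.16 (Uqcrq). Recentred on genes at or above the median level, Cox7a2l stood at 0.00034 and no other called member changed sign. The recomputed adjustment, the pseudocount of 1 FPKM, the level filter, means in place of medians, subunits alone and the omission of shared regions changed no direction of a median, and no count by over 1.5-fold.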
